A study of Homo sapiens with 6 samples.

Results

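The growth factor receptors and ligands described here are 10 genes, the receptor tyrosine kinase genes EGFR, ERBB2, ERBB3, MET, AXL and IGF1R and the EGF family ligand genes AREG, EREG, HBEGF and TGFA. They were taken by gene name from a table of 58825 genes. Each of the 10 names had 1 Ensembl identifier, and all 10 passed the filter on low values. PANC-1 is a human cell line from a carcinoma of the pancreas, and maslinic acid (MA) is a plant triterpene acid. RNA-seq was performed on 6 samples of this line, 3 exposed to MA at 40 μM for 24 h (named MA PANC-1) and 3 left untreated (named PANC-1), numbered 1 to 3 in each group and described in the study's methods as biological replicates. The labels call the controls untreated, while the culture methods of the study give control cells the solvent DMSO. Both groups were grown in medium with fetal bovine serum, which itself carries growth factors. The comparison asks how the mRNA of these receptors and ligands in MA PANC-1 differed from that in PANC-1.

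The identity of the cells was checked first, in FPKM (fragments per kilobase of the gene, scaled to the depth of the library), a level per length in which genes can be set side by side. The epithelial keratins KRT8 and KRT18 ranged from 141 to 225 and from 278 to 338 FPKM over the 6 samples, and the intermediate filament gene VIM from 521 to 754 FPKM. The ductal keratin KRT19 and the epithelial adhesion gene EPCAM were at or under 0.13 FPKM in every sample. The acinar cell markers summed to at most 0.087 FPKM and the endothelial markers to at most 0.047 FPKM. Of the leukocyte markers, CD68 was at 25.6 to 40.9 FPKM while PTPRC and CD3E were at or near 0, and of the fibroblast markers, COL3A1 was at 10.5 to 19.0 FPKM, COL1A1 at 2.64 to 5.96 and LUM at 0.351 to 0.616 while DCN was at or near 0. CD68 shares its strand with the overlapping gene AC016876, which had 1281 to 3582 estimated counts per sample, so counts of these 2 cannot be told apart.

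Estimated counts totalled 56978375, 63984133 and 58181114 for the MA PANC-1 libraries, in the order of the replicates, and 70275355, 65607669 and 59422939 for the PANC-1 libraries. One library stood apart. In a principal component analysis of log2 CPM (counts scaled to the library total), with 36.2% of the variance on the leading component, MA PANC-1 2 lay at −45.9 and the other samples between −9.94 and 22.3. Weighted by counts, the mean GC content of the genes was 52.2% for that library and 50.9% to 51.4% for the others. MA PANC-1 2 also held the lowest of the 6 values for 6 of the 10 genes and the highest for 2. The share of all genes with an extreme value in that library is not given here. The comparisons were also fitted without it, and values from that fit are given beside a number of the results.

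The ErbB receptors, of which EGFR, ERBB2 and ERBB3 are members, sit in the plasma membrane and pair with each other when a ligand binds. The paired kinase domains then phosphorylate tyrosines that recruit adaptor proteins and start the RAS-ERK and PI3K-AKT cascades. Their ligands are made as membrane-bound precursors and are released by proteases, and ERK signalling in turn raises the mRNA of several ligands and of inhibitors that dampen the receptor. In pancreatic carcinoma, EGFR and its ligands are known for their part in tumour growth.

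EREG and AREG, of the 4 ligand genes those with the lowest log2 fold changes after MA, are neighbours on the plus strand of chromosome 4. EREG (ENSG00000124882) lies at 74365145 to 74388749 and AREG (ENSG00000109321) at 74445136 to 74455005 (GRCh38), with 56386 bases between them and the ligand genes EPGN and BTC on either side. RefSeq promoters (GRCh38.p14) were matched for 9 of the 10 genes, all but ERBB3. The 250 bases before the start site of EREG, AREG and EGFR are shown 5′ to 3′ on the plus strand, since these were the 3 of the 10 genes with an unadjusted p under 0.05 between the groups (edgeR). They lie at chr4:74364895-74365144, chr4:74444886-74445135 and chr7:55018767-55019016. Capitals mark matches, on either strand, to the cAMP response element TGACGTCA, the AP-1 motif TGANTCA, the core promoter motif TATAAA, the TEAD motif GGAATG and the motif CCAAT.
EREG: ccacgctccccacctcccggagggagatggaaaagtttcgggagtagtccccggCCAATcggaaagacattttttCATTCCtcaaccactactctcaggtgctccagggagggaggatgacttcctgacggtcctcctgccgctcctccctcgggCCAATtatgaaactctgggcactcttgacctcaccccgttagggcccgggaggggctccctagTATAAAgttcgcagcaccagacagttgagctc
AREG: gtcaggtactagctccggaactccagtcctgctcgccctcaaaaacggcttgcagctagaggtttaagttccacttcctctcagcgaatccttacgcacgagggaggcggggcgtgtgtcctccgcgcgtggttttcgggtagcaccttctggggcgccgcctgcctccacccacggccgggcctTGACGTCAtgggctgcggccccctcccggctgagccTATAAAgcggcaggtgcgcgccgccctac
EGFR: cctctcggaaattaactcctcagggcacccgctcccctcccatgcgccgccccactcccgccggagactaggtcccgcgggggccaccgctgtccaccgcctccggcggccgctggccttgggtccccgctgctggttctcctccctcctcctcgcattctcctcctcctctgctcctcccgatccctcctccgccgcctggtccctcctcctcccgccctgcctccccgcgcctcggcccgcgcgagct
Both ligand promoters held a TATAAA, which began 32 bases before the start of EREG and 29 before that of AREG, and no other promoter of the 9 held one. It was found in 11.5% of 35116 RefSeq promoters of 300 bases (250 before and 50 after the start). AREG alone among the 9 held TGACGTCA, which began 65 bases before its start and was found in 1.85% of all promoters. EREG held 2 CCAAT (34.6% of all promoters) and 1 GGAATG, read on the opposite strand 175 bases before the start (14.0% of all promoters). The EGFR window of 300 bases held none of the capitalized motifs and had 3 matches to the GC box GGGCGG. The match that began 43 bases after the start lies outside the sequence shown. The GC box was found in 45.0% of all promoters and in 7 of the 9 described here. TGANTCA was matched in ERBB2 alone of the 9, against 7.71% of all promoters. The RefSeq start used for ERBB2 lay 180 bases from the start deposited for the gene, while those of the other promoters equalled the deposited starts. These are matches of letters, and none was tested as a binding site.

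In untreated PANC-1, AXL was the most abundant of the 10 at 64.8 ± 3.35 FPKM (SD, n = 3), followed by AREG at 38.2 ± 5.77, EGFR at 25.8 ± 2.45, EREG at 19.8 ± 1.95, TGFA at 17.98 ± 1.11 and MET at 15.7 ± 0.762. IGF1R stood at 9.83 ± 0.798, ERBB2 at 5.64 ± 0.178, HBEGF at 1.97 ± 0.572 and ERBB3 at 0.442 ± 0.0128 FPKM. The ranges of EREG and TGFA overlapped in these 3 samples, and no other neighbours in the order did. Over all 6 samples AREG overlapped EGFR, EGFR overlapped EREG, EREG overlapped TGFA and TGFA overlapped MET, so the order of these 5 genes was not separated across the groups.

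**Figure D1:**
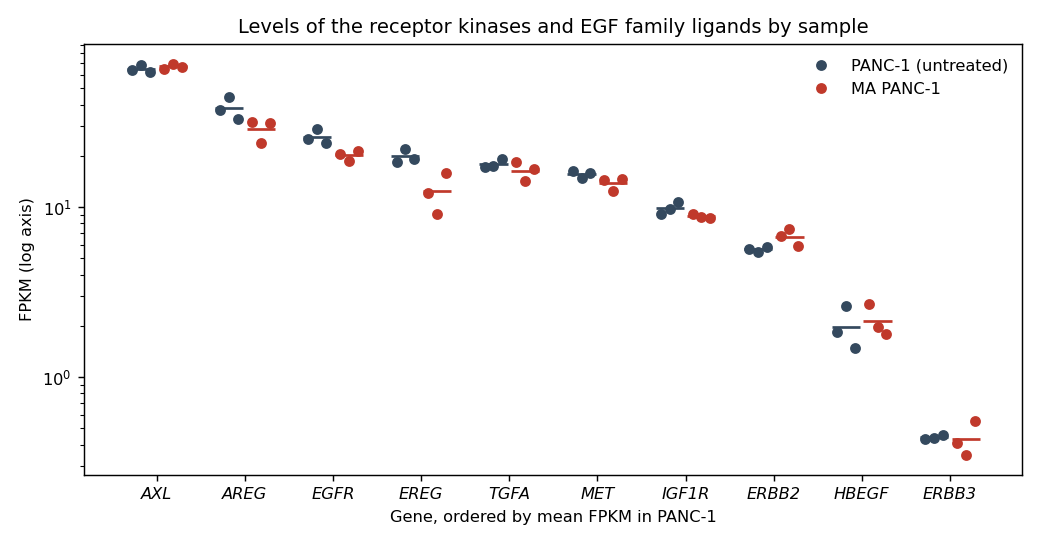
FPKM of the 10 genes (log axis) in each of the 3 PANC-1 and 3 MA PANC-1 samples, ordered by their mean in PANC-1, with a horizontal line at each group's mean. The MA PANC-1 points of EREG, AREG and EGFR all lie under those of PANC-1, and the points of AXL, HBEGF, TGFA and ERBB3 overlap between the groups.

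A total of 17774 genes with a mean of at least 0.1 FPKM over the 6 samples were compared by edgeR's quasi-likelihood test on the estimated counts, and p-values were adjusted by Benjamini-Hochberg over all of them. Of the 10 genes, 3 had an unadjusted p under 0.05, as did 11.2% of all genes tested, and all 3 were lower in MA PANC-1, as were 5.86% of all genes tested. The 10 genes were chosen with earlier results of these data known, so these shares do not test whether they differ from other genes. None of the 10 passed an adjusted p of 0.05 in edgeR (0.0394% of all genes did), and none met the study's rule of a 2-fold change with an unadjusted p under 0.05 (1.92% of all genes, 1.25% lower and 0.675% higher). DESeq2 put 1 of the 10, EREG, past an adjusted p of 0.05, with 1.8% of the 14623 genes to which it gave one. The FPKM values of the groups did not overlap for 6 of the 10 genes, 5 lower in MA PANC-1 and 1 higher, against 19.9% of all genes, with 11.1% lower and 8.79% higher. For groups of 3 an exact two-sided permutation test of 1 gene cannot give a p under 0.1. These are levels in bulk samples, in which fewer cells with a transcript and less of it per cell cannot be told apart. The median log2 fold change of the 10 genes was −0.11, against 0.00 for all genes tested. Without MA PANC-1 2, 2 of the 10 genes were lower and none higher at an unadjusted p under 0.05, against 5.81% lower and 4.51% higher of all genes.

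The markers of the cells themselves were set beside these values. Of 7 epithelial markers 5 were tested and none had an unadjusted p under 0.05 in edgeR, and their summed level was 606, 630 and 647 FPKM in PANC-1 and 568, 661 and 485 FPKM in MA PANC-1. With MA PANC-1 2 left out, 3 of the 5 were lower at an unadjusted p under 0.05 in edgeR (5.81% of all genes). These were KRT7 (log2 fold change −0.46), KRT8 (−0.39) and KRT18 (−0.22), while CDH1 (−0.31) and KRT80 (−0.07) did not pass. Of 4 mesenchymal markers, VIM (−0.31) passed, and ZEB1 (−0.39), CDH2 (0.02) and FN1 (0.05) did not. Whether these markers had a part in the differences of the 10 genes was not tested.

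**Figure D2:**
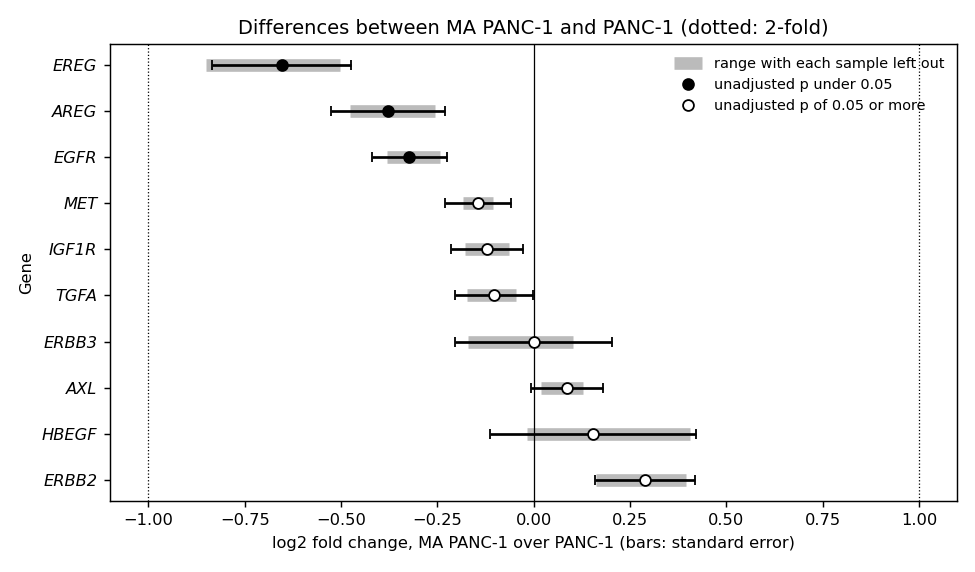
Log2 fold change of MA PANC-1 over PANC-1 for each of the 10 genes (points), with its standard error (thin bars) and the range found when each of the 6 samples was left out in turn (grey bars). Filled points have an unadjusted p under 0.05 in edgeR, and the dotted lines mark 2-fold, which no point reaches.

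Among the ligands, EREG (epiregulin, which binds EGFR and ERBB4) differed most. Its level was 18.3, 22.0 and 19.2 FPKM in PANC-1 1, 2 and 3 and 12.1, 9.08 and 15.9 FPKM in MA PANC-1 1, 2 and 3. Every MA PANC-1 sample lay under every PANC-1 sample, and MA PANC-1 2 was the lowest. The group means of 19.8 ± 1.95 and 12.4 ± 3.40 FPKM (SD, n = 3) differ by −37.6%. The log2 fold change was −0.65 (standard error 0.18, unadjusted p = 0.00797 and adjusted p = 0.388 in edgeR), and it was −0.50 without MA PANC-1 2 (unadjusted p = 0.0139 in edgeR). With any 1 sample left out the unadjusted p stayed under 0.05, with log2 fold changes from −0.85 to −0.50.

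AREG (amphiregulin, an EGFR ligand) was at 37.2, 44.4 and 33.0 FPKM in PANC-1 and 31.5, 23.7 and 31.1 FPKM in MA PANC-1, in the order of the replicates. The groups did not overlap, but PANC-1 3 stood little above MA PANC-1 1 and 3. The log2 fold change was −0.38 (standard error 0.15, unadjusted p = 0.0367 and adjusted p = 0.435 in edgeR). Without MA PANC-1 2 it was −0.29 (unadjusted p = 0.0876 in edgeR), without PANC-1 1 −0.40 (unadjusted p = 0.0666) and without PANC-1 2 −0.26 (unadjusted p = 0.134), so the call was lost in each of these fits. A fit with the replicate number as a block also lost it (−0.37, unadjusted p = 0.0726 in edgeR).

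TGFA (ENSG00000163235, chromosome 2, 70447284 to 70553826) encodes transforming growth factor alpha, an EGFR ligand, and was at 17.3, 17.4 and 19.3 FPKM in PANC-1 and at 18.3, 14.2 and 16.6 FPKM in MA PANC-1. The groups overlapped, with MA PANC-1 1 above 2 of the 3 PANC-1 samples and a log2 fold change of −0.10 (standard error 0.10, unadjusted p = 0.347 in edgeR). That value was −0.04 without MA PANC-1 2 and −0.17 without MA PANC-1 1. HBEGF (ENSG00000113070, chromosome 5, 140332843 to 140346603) encodes heparin-binding EGF-like growth factor, a ligand of EGFR and ERBB4, and was at 1.83, 2.60 and 1.48 FPKM in PANC-1 and at 2.68, 1.97 and 1.78 FPKM in MA PANC-1. It had the widest spread within a group of the 4 ligands relative to its level in PANC-1, and a log2 fold change of 0.15 (standard error 0.27, unadjusted p = 0.582 in edgeR). Its direction turned when PANC-1 3 or MA PANC-1 1 was left out (−0.02 for each), and the value was 0.41 without PANC-1 2.

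Of the 7 EGF family ligands outside the 10 genes, 3 passed the filter and none of them the unadjusted threshold. NRG2, a neuregulin, was the most abundant of these, at 2.27 to 2.89 FPKM in PANC-1 and 2.90 to 3.25 FPKM in MA PANC-1 (log2 fold change 0.28, unadjusted p = 0.109 in edgeR). NRG1, the neuregulin that binds ERBB3 and ERBB4, was at 0.564 to 1.14 FPKM in PANC-1 and 0.479 to 0.622 in MA PANC-1 (log2 fold change −0.55, unadjusted p = 0.0716). NRG4 had a log2 fold change of 0.00, and EGF, BTC, EPGN and NRG3 were under the filter. Summed over all 11 ligand genes, the level was 78.8, 90.4 and 76.1 FPKM in PANC-1 and 68.7, 53.0 and 69.0 FPKM in MA PANC-1, so that no MA PANC-1 sample reached the PANC-1 samples. AREG made up 46.6% ± 2.92 of the sum in PANC-1 and 45.2% ± 0.628 in MA PANC-1 (SD, n = 3). The share of EREG was 24.2% ± 1.002 in PANC-1 and 19.3% ± 3.24 in MA PANC-1, and MA PANC-1 3 at 23.0% was close to PANC-1 1 at 23.2%. TGFA took from 19.3% to 25.3% of the sum in PANC-1 and from 24.1% to 26.8% in MA PANC-1, which overlap.

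**Figure D3:**
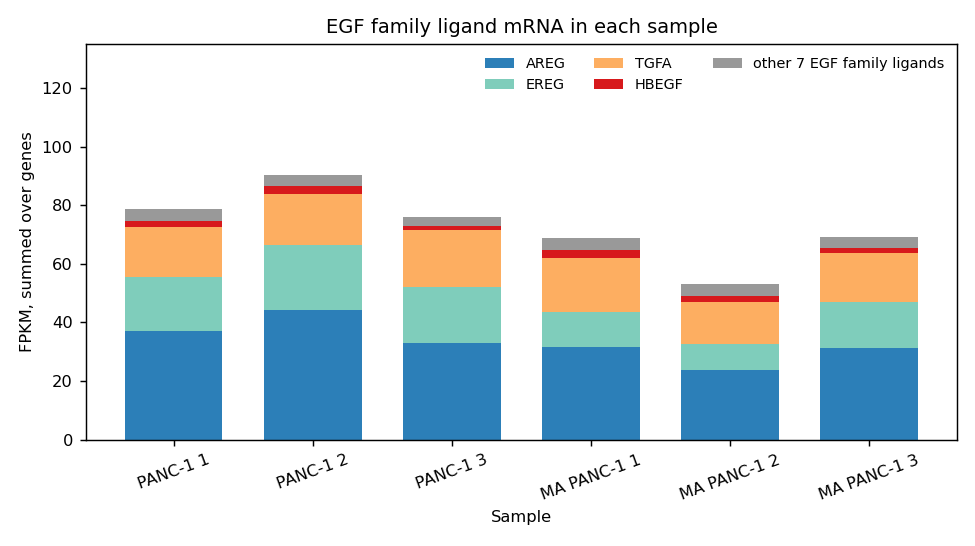
FPKM summed over the 11 EGF family ligand genes in each sample, stacked by gene, with the 7 ligands outside the 10 genes in grey. The 3 PANC-1 bars reach 76.1 to 90.4 FPKM and the 3 MA PANC-1 bars 53.0 to 69.0 FPKM, and AREG is the largest part of every bar.

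The pattern of EREG over the 6 samples, the widest range among the 10 genes on the log2 scale (1.18 in log2 CPM), was compared with that of 11469 genes with a mean of 1 FPKM or more. The nearest by the root mean square difference of gene-centred log2 CPM were HERC2P2, a pseudogene that may share reads with near-identical copies, at 0.0669, HNMT, histamine N-methyltransferase, at 0.0785, SRSF11, a splicing factor, at 0.0901, FAM107B at 0.0909 and GABPB1-AS1, an antisense RNA, at 0.0980. SRSF11, for example, was at 7.96, 9.26 and 7.38 FPKM in PANC-1 and 4.68, 4.10 and 6.22 FPKM in MA PANC-1. AREG, at 0.218, came 466th of the 11469 genes in this order and EGFR, at 0.257, 913th. No other of the 10 genes in this order lay nearer to EREG than AREG did. The measure also grows with a difference in the width of the range, which was 0.811 in log2 CPM for AREG. MA PANC-1 2 held the lowest value of EREG and of each of the nearest genes named above. The order was not determined without that library.

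Among the receptors, EGFR (ENSG00000146648, chromosome 7, 55019017 to 55211628), which binds all 4 ligands, was at 25.1, 28.6 and 23.8 FPKM in PANC-1 and 20.5, 18.7 and 21.3 FPKM in MA PANC-1. The groups did not overlap, and the mean differed by −21.9%, with 25.8 ± 2.45 FPKM in PANC-1 and 20.2 ± 1.31 FPKM in MA PANC-1 (SD, n = 3). EGFR had a log2 fold change of −0.32 (standard error 0.10, unadjusted p = 0.0119 and adjusted p = 0.388 in edgeR). It was −0.31 without MA PANC-1 2 (unadjusted p = 0.0201 in edgeR) and stayed under an unadjusted p of 0.05 with each sample left out, from −0.38 to −0.24. EGFR-AS1, the gene annotated on the opposite strand within EGFR, had 0 to 13 estimated counts per sample, beside 17402 to 28046 of EGFR.

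ERBB2 (ENSG00000141736, chromosome 17, 39687914 to 39730426), the ErbB receptor with no known ligand of its own, was the 1 gene of the 10 whose MA PANC-1 values all lay above those of PANC-1. It was at 5.66, 5.45 and 5.80 FPKM in PANC-1 and at 6.77, 7.46 and 5.86 FPKM in MA PANC-1. MA PANC-1 3 exceeded PANC-1 3 by little, and the log2 fold change was 0.29 (standard error 0.13, unadjusted p = 0.0591 in edgeR). Without MA PANC-1 3 it was 0.40 (unadjusted p = 0.0101 in edgeR), and without MA PANC-1 2 it was 0.16 (unadjusted p = 0.128). MIEN1 and PGAP3, on the opposite strand, overlap ERBB2 and had 1246 to 1514 and 595 to 1034 estimated counts per sample beside 4207 to 5894 of ERBB2. Whether reads were counted by strand is not given in the sources used here, so reads in the overlaps cannot be told apart. On the same strand, MIR4728 overlaps ERBB2, AC034102 ERBB3, TGFA-IT1 TGFA, and MIR4714 and AC118658 IGF1R, and none of these had more than 8 estimated counts in a sample. On the opposite strand, AC011510 overlaps AXL, and AC036108 and AC069029 overlap IGF1R, with at most 9 estimated counts in a sample.

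ERBB3 (ENSG00000065361, chromosome 12, 56076799 to 56103499), the neuregulin receptor with a weak kinase domain, was at 0.434, 0.435 and 0.456 FPKM in PANC-1 and 0.406, 0.346 and 0.547 FPKM in MA PANC-1. The log2 fold change of ERBB3 was 0.00 (standard error 0.20, unadjusted p = 0.999 in edgeR), and it ranged from −0.17 without MA PANC-1 3 to 0.10 without MA PANC-1 2. ERBB4, the fourth ErbB receptor, was listed at 0.0001 FPKM, the value for a gene without reads, in 5 of the 6 samples. The ratio of EGFR to ERBB2 in FPKM was 4.44, 5.24 and 4.11 in PANC-1 and 3.03, 2.51 and 3.63 in MA PANC-1. The groups could not overlap in this ratio, since every MA PANC-1 sample was lower in EGFR and higher in ERBB2 than every PANC-1 sample.

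MET (ENSG00000105976, chromosome 7, 116672196 to 116798377), the receptor of hepatocyte growth factor, was at 16.3, 14.8 and 15.9 FPKM in PANC-1 and 14.5, 12.4 and 14.7 FPKM in MA PANC-1. The groups did not overlap, although PANC-1 2 and MA PANC-1 3 lay side by side, and the log2 fold change was −0.15 (standard error 0.09, unadjusted p = 0.133 in edgeR). IGF1R (ENSG00000140443, chromosome 15, 98648539 to 98964530), the receptor of insulin-like growth factors, was at 9.08, 9.76 and 10.7 FPKM in PANC-1 and 9.06, 8.72 and 8.65 FPKM in MA PANC-1. PANC-1 1 and MA PANC-1 1 were almost level, and the log2 fold change was −0.12 (standard error 0.09, unadjusted p = 0.232 in edgeR), or −0.06 without PANC-1 3. AXL (ENSG00000167601, chromosome 19, 41219223 to 41261766), the receptor of GAS6, was at 64.3, 68.4 and 61.8 FPKM in PANC-1 and 64.7, 69.7 and 66.8 FPKM in MA PANC-1. Its groups overlapped, with a log2 fold change of 0.09 (standard error 0.09, unadjusted p = 0.384 in edgeR), or 0.02 without MA PANC-1 2. The ratio of AXL to EGFR was 2.56, 2.40 and 2.60 in PANC-1 and 3.15, 3.72 and 3.14 in MA PANC-1.

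Set among the 57 receptor tyrosine kinase genes ranked by their level in PANC-1, of which 22 reached 1 FPKM, AXL came 2nd behind the ephrin receptor EPHA2 at 117 ± 7.86 FPKM (SD, n = 3). EGFR came 3rd, MET 5th, IGF1R 8th and ERBB2 14th. Of the receptor kinase genes outside the 10, 27 were tested, and 2 were lower and 1 higher in MA PANC-1 at an unadjusted p under 0.05 (5.86% and 5.37% of all genes tested), with a median log2 fold change of 0.06. ROR1, a WNT5A receptor with a log2 fold change of −0.75 (unadjusted p = 0.00876 in edgeR), was at 1.87 to 2.43 FPKM in PANC-1 and 0.945 to 1.59 in MA PANC-1. RYK, another Wnt receptor, had a log2 fold change of −0.38 (unadjusted p = 0.0256) and FGFR3, a fibroblast growth factor receptor, of 0.54 (unadjusted p = 0.0358), and the FGFR3 groups overlapped. Without MA PANC-1 2 the counts were 5 lower and 1 higher (5.81% and 4.51% of all genes), the median was −0.02, and FGFR3 had unadjusted p = 0.0718 in edgeR.

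**Figure D4:**
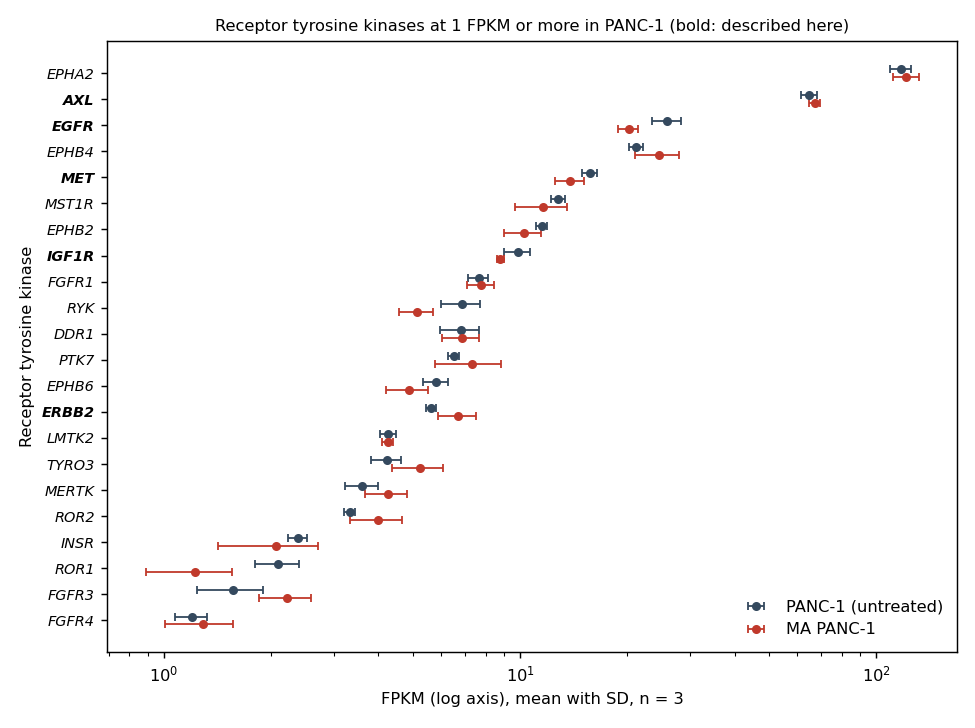
Mean FPKM with SD (n = 3, log axis) of the 22 receptor tyrosine kinase genes at 1 FPKM or more in PANC-1, in PANC-1 and MA PANC-1, with the genes described here in bold. EPHA2 at 117 FPKM in PANC-1 stands at the top, followed by AXL and EGFR.

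The lists of pathway genes around the receptors are described by their counts, beside the 5.86% of all genes tested that were lower and the 5.37% that were higher at an unadjusted p under 0.05. None of their genes passed an adjusted p of 0.05 in edgeR with all 6 samples. Of the 7 genes for ligand shedding, 6 were tested and 1, ADAM10, was lower. ADAM10, a protease that releases EGF family ligands, was at 6.19, 5.90 and 7.15 FPKM in PANC-1 and 4.63, 3.65 and 5.69 FPKM in MA PANC-1 (log2 fold change −0.43, unadjusted p = 0.0225 in edgeR). The protease ADAM17, the main sheddase of AREG, EREG, HBEGF and TGFA, was at 3.72 to 3.95 FPKM in PANC-1 and 3.08 to 4.11 in MA PANC-1, a log2 fold change of −0.03 (unadjusted p = 0.772). The other 4 had log2 fold changes of −0.35 for ADAM9, 0.40 for ADAM15, 0.18 for RHBDF1 and 0.08 for RHBDF2, and the last pair encodes iRhom proteins that carry ADAM17 to the surface. Without MA PANC-1 2 they were −0.17 for ADAM9, 0.15 for ADAM15 and −0.10 for RHBDF2, and that of ADAM17 was 0.05, so that the last 2 turned direction. ADAM12 was under the filter.

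The ligands and binding proteins of MET, AXL and IGF1R numbered 13, of which 9 were tested, 2 were lower and 1 was higher, with a median log2 fold change of −0.01 that was −0.16 without MA PANC-1 2. IGFBP4, a secreted protein that binds insulin-like growth factors, was at 303, 304 and 301 FPKM in PANC-1 and 148, 176 and 161 FPKM in MA PANC-1. That is a log2 fold change of −0.86 (standard error 0.11, unadjusted p = 7.25e-05 and adjusted p = 0.0887 in edgeR), and of −0.97 without MA PANC-1 2 (adjusted p = 0.0248 in edgeR). IGF2, a ligand of IGF1R, was at 35.1, 34.1 and 36.3 FPKM in PANC-1 and 24.0, 23.4 and 22.3 FPKM in MA PANC-1 (log2 fold change −0.56, standard error 0.08, unadjusted p = 0.000249 and adjusted p = 0.158 in edgeR). The groups overlapped for neither gene. IGFBP2, another binding protein, was at 1.48 to 1.84 FPKM in PANC-1 and 2.30 to 2.93 in MA PANC-1 (log2 fold change 0.68, unadjusted p = 0.00593 in edgeR). GAS6, the ligand of AXL, was at 4.32 to 4.45 FPKM in PANC-1 and 4.30 to 5.05 in MA PANC-1. HGF, the ligand of MET, IGF1, IGFBP1 and IGFBP5 were under the filter.

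Of 19 adaptor and RAS-ERK genes, all tested, 5 were lower and 1 higher, with a median log2 fold change of 0.10. Leaving out MA PANC-1 2, the counts were 4 lower and 1 higher and the median turned to −0.03. IRS1, the adaptor of IGF1R and the insulin receptor, was at 6.35, 5.98 and 6.61 FPKM in PANC-1 and 4.72, 4.62 and 5.31 FPKM in MA PANC-1 (log2 fold change −0.34, unadjusted p = 0.00896 in edgeR). SHC1, an adaptor that binds phosphorylated ErbB receptors, was at 52.2 to 54.4 FPKM in PANC-1 and 61.4 to 75.5 in MA PANC-1 (log2 fold change 0.39, unadjusted p = 0.0123). SOS2, an exchange factor that activates RAS, was at 3.71 to 3.92 FPKM in PANC-1 and 2.19 to 3.30 in MA PANC-1 (log2 fold change −0.40, unadjusted p = 0.0268). The other 3 lower genes, named after their values were seen, were GAB1 (−0.65), SOS1 (−0.31) and NRAS (−0.29), and of these NRAS had unadjusted p = 0.0626 without MA PANC-1 2, while the value of SOS1 was −0.19. Of 15 PI3K-AKT genes, 0 were lower and 0 higher at an unadjusted p under 0.05 in edgeR, with a median log2 fold change of 0.09, and without MA PANC-1 2 the counts were 0 lower and 2 higher and the median was 0.02. RICTOR, a part of mTOR complex 2, had a log2 fold change of −0.58 (unadjusted p = 0.0716) and PIK3CA, a catalytic subunit of PI3K, of −0.39 (unadjusted p = 0.0812), while that of TSC2, an inhibitor of mTOR complex 1, was 0.26 (unadjusted p = 0.0820). Without MA PANC-1 2 these were −0.34 for RICTOR (unadjusted p = 0.140 in edgeR), −0.23 for PIK3CA (unadjusted p = 0.160) and 0.12 for TSC2 (unadjusted p = 0.156).

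Of the 24 genes for receptor and ERK feedback inhibitors, 22 were tested, and 3 were lower and 3 higher, with a median log2 fold change of −0.02. DUSP4, a phosphatase of ERK in the nucleus, was at 11.3, 10.1 and 9.75 FPKM in PANC-1 and 5.50, 5.32 and 6.04 FPKM in MA PANC-1. The log2 fold change of −0.85 (standard error 0.10, unadjusted p = 4.9e-05 and adjusted p = 0.0791 in edgeR) was −0.85 also without MA PANC-1 2. ERRFI1, whose protein binds and inhibits the EGFR kinase, was at 68.6, 74.2 and 65.6 FPKM in PANC-1 and 51.2, 41.5 and 54.2 FPKM in MA PANC-1 (log2 fold change −0.47, unadjusted p = 0.00237). SPRY2, an inhibitor of receptor-to-RAS signalling, was at 7.31 to 7.51 FPKM in PANC-1 and 4.78 to 5.73 in MA PANC-1 (log2 fold change −0.43, unadjusted p = 0.00515). The 3 higher genes, named after their values were seen, were SOCS3 (0.48), SOCS2 (0.44) and PTPN1 (0.24), and of these SOCS2 had unadjusted p = 0.0525 in edgeR without MA PANC-1 2.

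The ERK transcript readout, 10 genes whose mRNA ERK activity is known to raise and of which DUSP4, DUSP6, SPRY2, SPRY4, EPHA2 and EPHA4 also stand in the lists above, held 3 lower genes and none higher. Its median log2 fold change was −0.08. PHLDA1 was at 28.3, 31.1 and 29.3 FPKM in PANC-1 and 18.7, 15.4 and 20.2 FPKM in MA PANC-1 (log2 fold change −0.67, standard error 0.10, unadjusted p = 0.000244 and adjusted p = 0.158 in edgeR), and DUSP4 and SPRY2 were the others. The remaining 7 did not pass. The cyclin gene CCND1 had a log2 fold change of −0.06 and the ERK phosphatase gene DUSP6 of −0.09, SPRY4 was at 0.01, EPHA2 at 0.09, and the transcription factor genes ETV4 and ETV5 were at 0.08 and 0.07. EPHA4, near the filter at 0.0788 to 0.186 FPKM, had −0.64 with unadjusted p = 0.0925. Leaving out MA PANC-1 2 turned the direction of ETV4 (−0.09) and EPHA2 (−0.02) and gave 0.03 for ETV5 and −0.06 for DUSP6. Without MA PANC-1 2 the readout again held 3 lower genes and none higher.

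**Figure D5:**
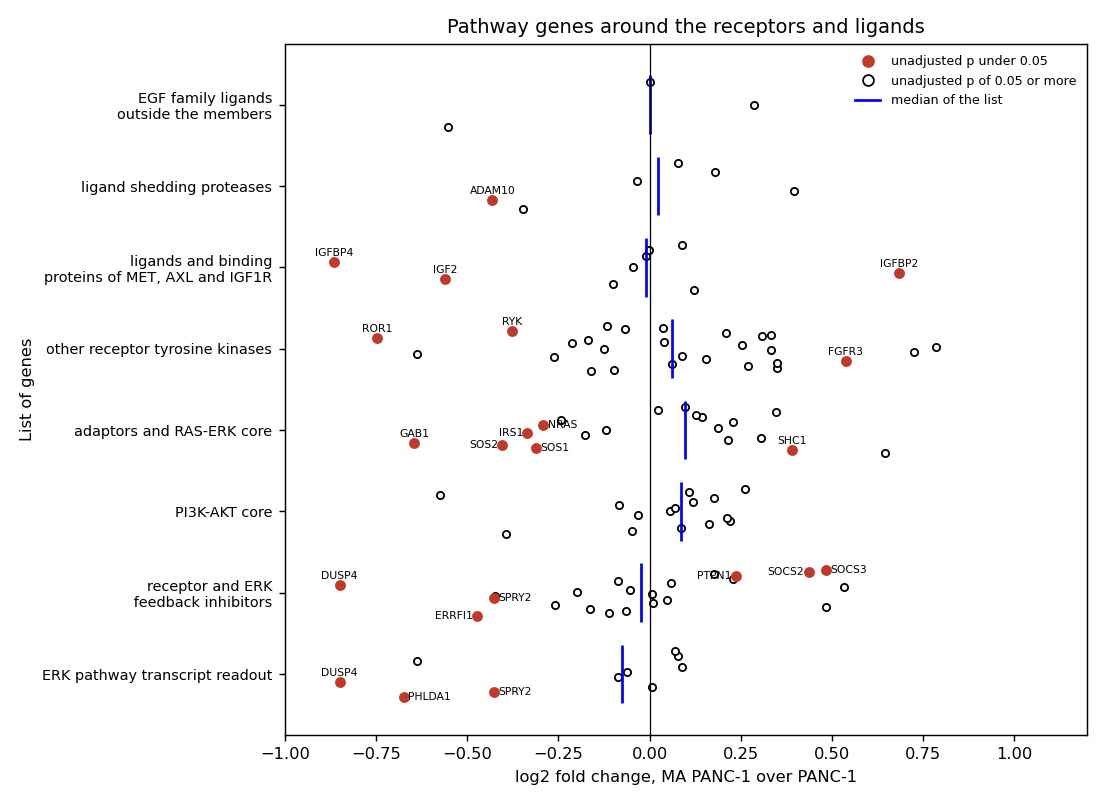
Log2 fold change of MA PANC-1 over PANC-1 for every tested gene of 8 pathway lists, with filled points for an unadjusted p under 0.05 in edgeR and a vertical bar at each list's median. With all samples the medians lie between −0.08 and 0.10, while single genes such as IGFBP4 (−0.86), DUSP4 (−0.85) and IGFBP2 (0.68) lie farther out.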

How the data were processed

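RNA of 3 MA PANC-1 and 3 PANC-1 samples was sequenced from poly(A) libraries. For each gene the authors deposited FPKM values, normalized by length and depth, with 0.0001 for a gene without reads, and estimated counts, not normalized and listed as whole numbers. The submitters' processing notes name cutadapt 1.9, HISAT2 2.0.4, StringTie 1.3.4d, edgeR and DESeq2. Gene positions are those of GRCh38 (47519 of 58825 equal GENCODE release 29, and 2 of the 10 genes), printed as deposited. The estimated counts outnumber the valid reads the study lists, so precision rests on the spread between replicates.

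Genes averaging 0.1 FPKM or more were fitted with edgeR 4.0.16 (TMM factors 0.941 to 1.02, quasi-likelihood) in R 4.3.3. The standard error was the log2 fold change divided by the square root of F. Alternatives were RLE and upper quartile scaling, DESeq2 1.42.0, limma 3.58.1 on log2(FPKM + 0.1) and log2(FPKM + 1), other filters, a replicate block, halved counts, samples left out in turn, and summed overlapping genes.

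The 10 genes and the lists were chosen with earlier results of these data known. Named were the 10 genes, in each list the 3 genes of smallest p with a mean FPKM of at least 1, every tested gene of the ligand, sheddase and ERK readout lists, the 5 genes nearest to EREG and genes overlapping the 10. Also named were GAS6, cell markers, genes under the filter, AC016876, AC007192 and genes named or examined after their values were seen. LMTK3 was not analysed here, and 2 genes of the lists are not reported here and were left out of the counts.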

Additional observations from a re-analysis of the deposited data

How the results depend on the processing

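No log2 fold change of the 10 genes that had an unadjusted p under 0.05 in edgeR, or gained one under an alternative, changed direction under the alternatives run. Among the values of all 10 genes under the alternatives, 154 kept their side of that threshold, 4 lost the call and 1 gained it. ERBB2 gained it without MA PANC-1 3 (0.40). AREG lost it without MA PANC-1 2, PANC-1 1 or PANC-1 2 (−0.40 to −0.26) and with the replicate block (−0.37, unadjusted p = 0.0726 in edgeR). The main fit did not use the replicate numbers as pairs. The deviations of same-numbered MA PANC-1 and PANC-1 samples correlated at 0.0595, 0.138 and 0.102. Those of differently numbered samples correlated at −0.0997 to 0.00745, so that each sample correlated best with its own number. With the replicate block 0 genes passed an adjusted p of 0.05 in edgeR, and 2 of the 10 genes, with 2215 of all genes, an unadjusted p of 0.05.

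Leaving out each sample in turn, 2 to 4 of the 10 genes passed an unadjusted p of 0.05, and 1178 to 3213 of all genes (1995 with all samples), the extremes being without PANC-1 1 and without MA PANC-1 3. It gave 326 to 534 genes past a 2-fold change with an unadjusted p under 0.05 (342 with all samples) and 3 to 24 past an adjusted p of 0.05 (7 with all samples), the most without MA PANC-1 2. The 2-fold count was 44 in limma on log2(FPKM + 1), 93 with a filter at 1 FPKM and 569 with no filter. The adjusted count was 263 in DESeq2, where 1 of the 10 genes passed, and 12 with a filter at 1 FPKM. The cause of these shifts was not tested, apart from the filters, which change the number of genes. ERBB3 was not tested with a filter at 1 FPKM. Summing overlapping genes on a strand, for the pathway lists chosen after seeing the data, changed no call among the 10 genes.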

Other observations

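Some genes of the pathway lists had values that differed between libraries of the same group by far more than their neighbours, and these were looked at after their values were seen. PIK3R2, a regulatory subunit of PI3K, was at 8.35, 0.0950 and 0.150 FPKM in PANC-1 and 9.67, 0.175 and 0.0933 FPKM in MA PANC-1. AC007192, which overlaps PIK3R2 on the same strand, had the opposite pattern, with estimated counts of 12, 3145 and 2862 in PANC-1 and 21, 4059 and 2489 in MA PANC-1. The summed counts of both were 3146, 3180 and 2911 in PANC-1 and 2951, 4120 and 2519 in MA PANC-1, a log2 fold change of 0.21.

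GRB2, the adaptor that links receptors to SOS, was at 8.75 FPKM in PANC-1 1 and at 24.5 and 24.9 FPKM in PANC-1 2 and 3, against 28.5 to 30.7 FPKM in MA PANC-1. CBL, a ubiquitin ligase that targets EGFR, was at 1.38 FPKM in PANC-1 1 and between 7.87 and 9.13 FPKM in the other 5 samples. Both were low in the same library, and its part in their log2 fold changes (0.64 for GRB2 and 0.48 for CBL, with unadjusted p = 0.115 and 0.429 in edgeR) was not tested.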
